A study of Mus musculus with 12 samples.

Results

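NIAAA ethanol feeding was compared with control feeding in the livers of Lpcat3 knockout mice, labelled LKO. The comparison took 5 bulk RNA-seq libraries of the 11 analysed, namely the 3 of LKO-ALD (NIAAA feeding) and 2 of LKO-NC (control feeding). Another LKO-NC sample, the last of the 12 labelled, was not analysed here. Mice of both groups were labelled LPCAT3flox/flox-cre, male, C57BL/6 and 8 to 10 weeks old, so the floxed alleles and the cre transgene were shared by both groups. The sources used here do not give the promoter that drives cre, the exons it removes or any pooling of animals. The matching floxed mice without cre (LPCAT3flox/flox, the same sex, strain and age) formed FLOX-NC and FLOX-ALD, with 3 libraries each. They helped to estimate the spread and were used for comparison. Nothing in the labels says that replicates were separate animals, and the p-values therefore reflect only how far these libraries vary, possibly for technical reasons.

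The NIAAA model is a mouse protocol of alcoholic liver injury that combines feeding of an ethanol liquid diet with an ethanol binge. Hepatocytes oxidise most of the ethanol, and the process burdens mitochondria, the endoplasmic reticulum and the handling of fatty acids, while Kupffer cells, the resident macrophages of the liver, respond to products that cross from the gut. Lpcat3 encodes the membrane-bound acyltransferase that puts polyunsaturated fatty acids into lysophospholipids and is a target of the nuclear receptor LXR.

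Library totals were 42.6 and 49.4 in LKO-NC and 49.2, 58.0 and 73.6 in LKO-ALD, in units of 1e6 estimated counts. Mitochondrially encoded genes took 25.3% of the counts in LKO-NC replicate 1, 15.4% in LKO-NC replicate 2 and 13% to 14.9% in LKO-ALD. In the floxed mice they took 12.11% to 13.04% in FLOX-NC and 13.06%, 22.31% and 26.43% in FLOX-ALD replicates 1 to 3. Levels below are counts per 1e6 scaled by trimmed mean of M-values (CPM), and log2 fold changes are LKO-ALD against LKO-NC unless another comparison is named. Lpcat3, the targeted gene, had 29.2 and 37.2 CPM in LKO-NC and 10.8, 15.4 and 9.80 CPM in LKO-ALD. All 5 libraries lay below all 3 of FLOX-NC (103, 87.1 and 101 CPM), and the 3 of LKO-ALD lay below both of LKO-NC. FLOX-ALD, without cre, had 37.9, 43.2 and 30.5 CPM, which overlapped LKO-NC and lay above LKO-ALD. All 14 hepatocyte markers were detected in each of the 5 libraries, and albumin (Alb) ranged from 39022 to 94624 CPM. In FLOX-ALD replicate 1, labelled male, Xist was at 772 CPM and the summed Y-linked genes at 0, against at most 2.95 CPM of Xist in the other 10 libraries.

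On NIAAA feeding 182 of 19014 tested genes changed, or 0.957% (edgeR quasi-likelihood test, Benjamini-Hochberg adjusted p up to 0.05). Of these, 56 rose (0.295%) and 126 fell (0.663%), and 162 of the 182 were protein coding. Each called gene differed by at least a log2 fold change of 1.01 in size, and in each of them the libraries of the groups did not overlap. Over all tested genes the groups did not overlap in 20.1% with LKO-ALD higher and in 19.6% with LKO-ALD lower. The median log2 fold change was 1.59 among the genes that rose, −1.92 among those that fell and −0.0013 over all genes. An unadjusted p under 0.05 was found for 3708 genes (19.5%). A large rise was seen in the glutathione transferase gene Gstt3 and a large fall in Fbf1, which encodes a centriole protein of cilia. Gstt3 had 8.12 and 13.9 CPM in LKO-NC and 124, 103 and 102 CPM in LKO-ALD (log2 fold change 3.31, SE 0.664, edgeR adjusted p = 0.0495). Fbf1 had 195 and 86.8 CPM in LKO-NC and 11.45, 7.59 and 15.4 CPM in LKO-ALD (−3.62, SE 0.511, edgeR adjusted p = 0.0229). In both genes the lowest library of the higher group was several times the highest of the lower group.

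**Figure D1:**
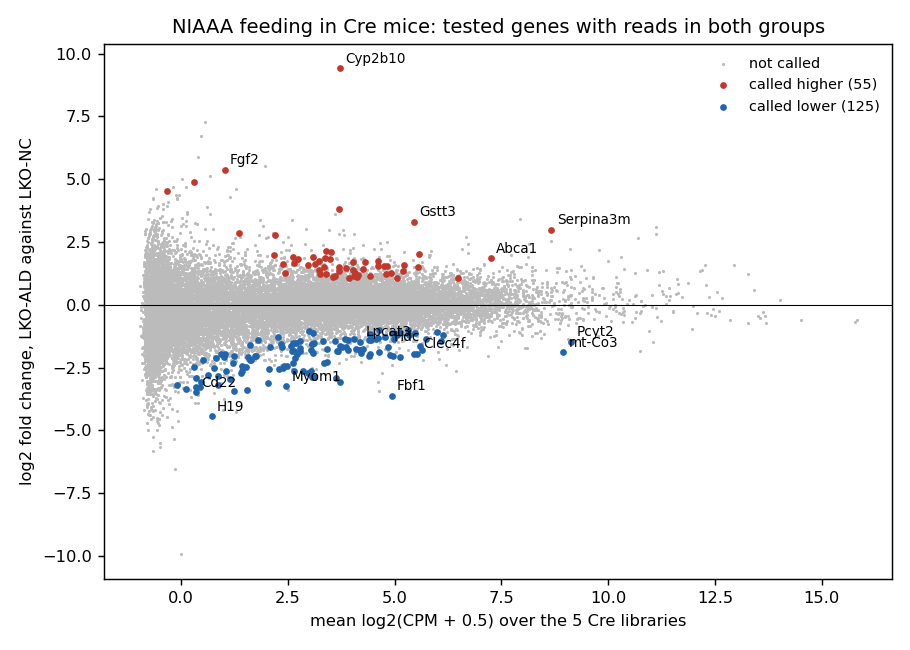
Each point is a tested gene with reads in both groups, placed by its mean log2(CPM + 0.5) over the 5 Cre libraries and by its log2 fold change of LKO-ALD against LKO-NC, with called genes in red (higher) and blue (lower). Called genes that fell spread over low and middle levels, while Serpina3m (log2 fold change 2.99), Abca1 (1.84), Pcyt2 (−1.46) and mt-Co3 (−1.89) stand among the abundant ones.

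LKO-NC replicate 1, with its high mitochondrial share, was then left out, and the remaining control library was assumed to vary like the other groups. All 182 genes kept their sign, and their median absolute log2 fold change went from 1.81 to 1.61. The groups did not overlap in any of these genes, so leaving out a library could hardly turn a sign. The kept signs are therefore no separate support. With 1 control library 12 of 20347 genes were called (0.059%), 4 higher (0.0197%) and 8 lower (0.0393%). Of the 12, 8 were also among the 182, namely Myom1, Map3k13, Slc8b1, Nat8f1, Zfand4, Lmbr1l and Hdc, which fell, and Fgf2, which rose. The changes were at least 1.5 times smaller without this library in 10 of the 126 genes that fell and in 0 of the 56 that rose. LKO-NC replicate 1 was above LKO-NC replicate 2 in 82 of the 126, by 1.5 times or more in 51, and below by 1.5 times or more in 12. Among the 56 that rose, LKO-NC replicate 1 was below LKO-NC replicate 2 in 40.

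**Figure D2:**
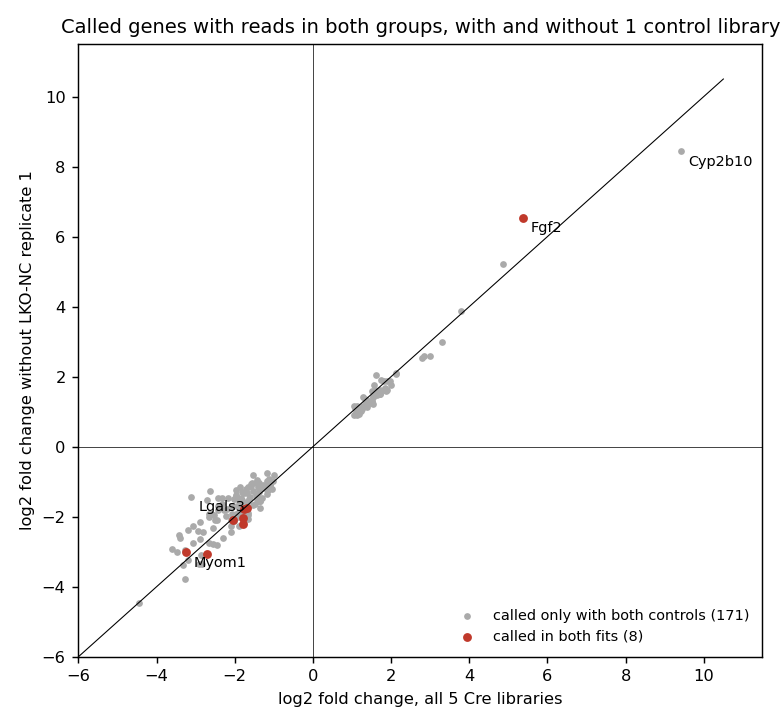
The log2 fold change of each called gene with all 5 Cre libraries (x) is plotted against that without LKO-NC replicate 1 (y), with the line of equality and, in red, the 8 genes called in both fits; genes with no reads in a group or in LKO-NC replicate 2 are left out. All points lie in the same quadrant as before, which the lack of overlap between the groups made nearly certain. Lgals3 (−3.11 and −1.43) lies well off the line.

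The 7 genes that fell with and without that library had different roles. Myom1, which encodes the sarcomere protein myomesin, had 21.2 and 15.7 CPM in LKO-NC and 2.37, 1.62 and 1.86 CPM in LKO-ALD (−3.24, SE 0.324, edgeR adjusted p = 0.00475, and −3.01, SE 0.388, edgeR adjusted p = 0.022 without LKO-NC replicate 1). Its floxed controls were lower, at 4.39, 5.39 and 6.39 CPM, so both LKO-NC libraries lay above all of FLOX-NC. Slc8b1, the sodium and calcium exchanger of the inner mitochondrial membrane, had 69.6 and 73.4 CPM in LKO-NC and 16.2, 20.8 and 14.96 CPM in LKO-ALD (−2.05, SE 0.225, edgeR adjusted p = 0.0061). Hdc, the enzyme that makes histamine from histidine, had 54.4 and 59.9 CPM in LKO-NC and 20.9, 15.4 and 17.4 CPM in LKO-ALD (−1.67, SE 0.204, edgeR adjusted p = 0.00842). In Slc8b1 and Hdc the 2 control libraries lay close together and far above the 3 fed ones. Lmbr1l, which encodes a membrane receptor related to lipocalin receptors, had 33.6 and 34.8 CPM in LKO-NC and 10.7, 10.8 and 8.95 CPM in LKO-ALD (−1.76, SE 0.206, edgeR adjusted p = 0.00688). Map3k13, a kinase upstream of JNK signalling, had 16.8 and 30.1 CPM in LKO-NC and 4.11, 4.97 and 1.74 CPM in LKO-ALD (−2.70, SE 0.384, edgeR adjusted p = 0.0207). Nat8f1, of the N-acetyltransferase 8 family, had 72.8 and 143 CPM in LKO-NC and 30.8, 38.6 and 24.2 CPM in LKO-ALD (−1.79, SE 0.296, edgeR adjusted p = 0.0303). Map3k13 and Nat8f1 were lower in LKO-NC replicate 1 than in replicate 2, and their changes were larger without it (−3.06 and −2.20). Zfand4, a zinc finger gene, had 24.5 and 36.8 CPM in LKO-NC and 10.4, 9.22 and 7.17 CPM in LKO-ALD (−1.78, SE 0.247, edgeR adjusted p = 0.0184). Leaving out each of the 5 Cre libraries in turn, 5 of the 182 genes were called in all 5 fits (Myom1, Slc8b1, Lmbr1l, Hdc and Fgf2), Map3k13 in 4, and 65 in 0.

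Fgf2, a growth factor gene (ENSMUSG00000037225, mm10 chr3:37348346-37410108, + strand), stood apart for the way in which it rose. It had counts of 7 and 2 in LKO-NC and of 181, 256 and 327 in LKO-ALD, or 0.152 and 0.0417 CPM against 3.70, 4.14 and 4.45 CPM (5.38, SE 0.608, edgeR adjusted p = 0.0061). The 6 floxed libraries had 2.73 to 7.89 CPM, so the 2 LKO-NC libraries were the low ones among all 11 and LKO-ALD lay at the level of floxed mice. Its main transcript, ENSMUST00000200585 with 3 exons, was given 0 and 0 counts in LKO-NC, between 175 and 372 in the other 9 libraries. Fgf2 overlaps Nudt6 on the opposite strand, which had 397 and 442 counts in LKO-NC and 178, 466 and 349 in LKO-ALD. On the log2(FPKM + 0.1) scale the change of Fgf2 was not called (limma adjusted p = 0.217). How far the assignment of reads between transcripts and strands set these counts was not tested.

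The other 4 genes called without LKO-NC replicate 1 were Btg1, an inhibitor of proliferation, which fell, and Rxra, Mief1 and Slc10a3, which rose; none was among the 182. Rxra, the partner receptor of LXR, PPARA and PXR, had 153 CPM in LKO-NC replicate 1, 13.8 CPM in replicate 2 and 263, 216 and 208 CPM in LKO-ALD. Its main transcript ENSMUST00000077257 had 7024 counts in replicate 1 and 0 in replicate 2, against 6734 to 17917 in the other 9 libraries. The main transcripts of Mief1 (ENSMUST00000023048) and Slc10a3 (ENSMUST00000037967) were likewise at 0 in LKO-NC replicate 2 and above 0 in replicate 1, and that of Mief1 was also at 0 in FLOX-ALD replicate 2. The part of these zeros in the 3 rises was not tested. With both controls Rxra, Mief1 and Slc10a3 were not called (edgeR adjusted p = 0.286, 0.106 and 0.33). Over the 182 genes, the same transcript took most reads in all 5 libraries in 122, and the groups shared no main transcript in 8.

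**Figure D3:**
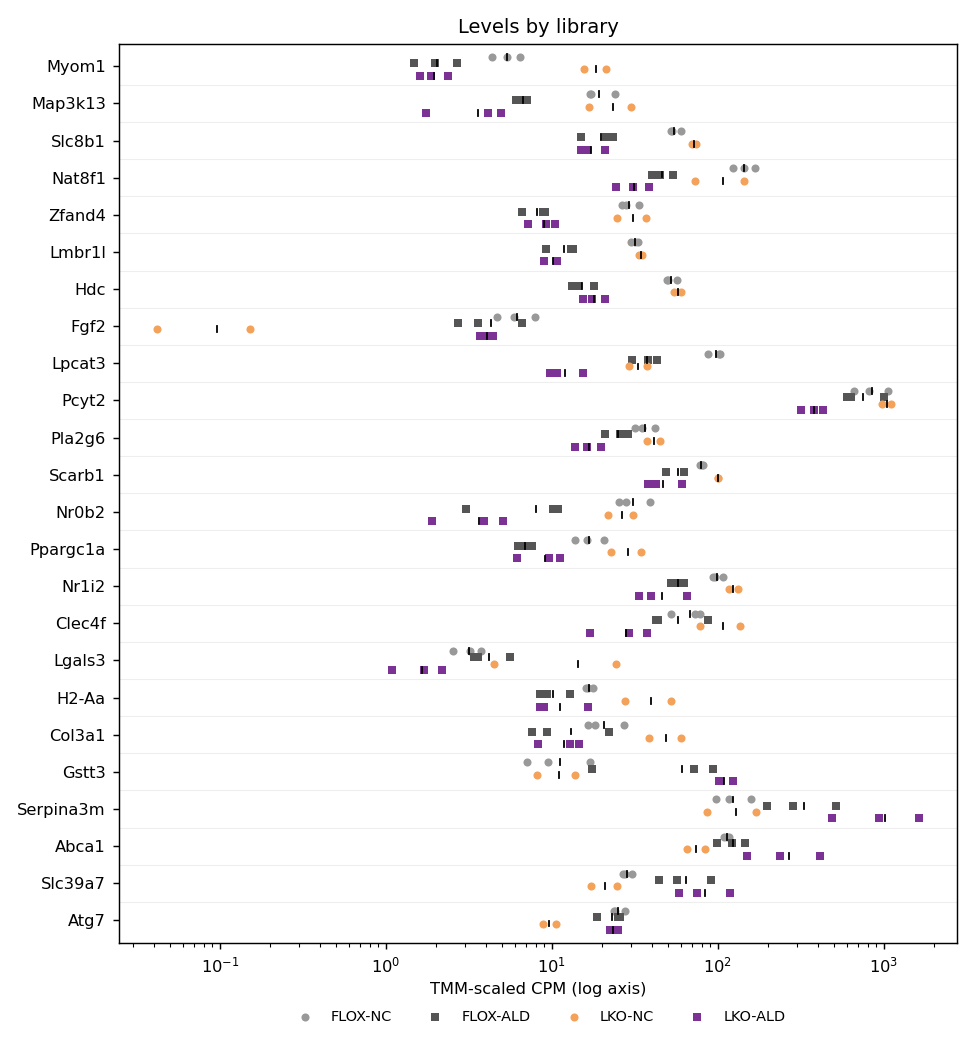
TMM-scaled CPM (log axis) of 24 genes described here, 1 point per library and a bar at each group mean, for FLOX-NC (n = 3), FLOX-ALD (n = 3), LKO-NC (n = 2) and LKO-ALD (n = 3). LKO-NC and LKO-ALD do not overlap in any row, while Lgals3, with 24.2 and 4.46 CPM in LKO-NC, shows the wide gap between the 2 control libraries.

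Phospholipid genes held several of the called members. Pcyt2, the rate-limiting enzyme of phosphatidylethanolamine synthesis by the CDP-ethanolamine route, had 1107 and 971 CPM in LKO-NC and 381, 431 and 319 CPM in LKO-ALD (−1.46, SE 0.307, edgeR adjusted p = 0.0488). Of 19 genes of phosphatidylcholine and phosphatidylethanolamine synthesis it alone was called, and their median was 0.16. Of 26 lysophospholipid acyltransferases, phospholipases and acyl-CoA synthetases (median −0.11), 3 fell and 0 rose, against 0.957% called over all genes. They were Lpcat3 itself (−1.47, SE 0.239, edgeR adjusted p = 0.0303), the calcium-independent phospholipase Pla2g6 and the macrophage-expressed acyltransferase Lpcat2. Pla2g6 had 45.0 and 37.6 CPM in LKO-NC and 16.4, 13.8 and 19.8 CPM in LKO-ALD (−1.31, SE 0.223, edgeR adjusted p = 0.0303). Lpcat2 was scarce, with 3.72 and 3.002 CPM in LKO-NC and 0.613, 0.906 and 0.857 CPM in LKO-ALD (−2.08, SE 0.44, edgeR adjusted p = 0.0495). None of the 3 overlapped between the groups, and none was called without LKO-NC replicate 1 (−1.63, −1.18 and −1.92). Cptp, a transfer protein for ceramide 1-phosphate named here after its values were seen, rose from 7.02 and 7.51 CPM to 14.7, 16.2 and 17.5 CPM (1.15, SE 0.227, edgeR adjusted p = 0.0424).

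Among sterol and bile acid genes, Abca1 rose and Scarb1 and Nr0b2 fell. Abca1, the LXR-induced exporter of cholesterol, rose from 65.0 and 83.5 CPM to 236, 150 and 414 CPM (1.84, SE 0.376, edgeR adjusted p = 0.046). Scarb1, the receptor that takes up cholesterol from high-density lipoprotein, fell from 99.7 and 100.4 CPM to 42.4, 60.5 and 38.0 CPM (−1.09, SE 0.225, edgeR adjusted p = 0.0464). Nr0b2, the repressor of bile acid synthesis known as SHP, fell from 21.7 and 31.0 CPM to 3.93, 5.05 and 1.90 CPM (−2.86, SE 0.509, edgeR adjusted p = 0.0345). In all 3 genes both control libraries lay outside the range of the fed ones. Of 19 LXR targets and sterol efflux genes 1 rose and 1 fell (median −0.28), of 24 apolipoprotein and lipoprotein genes 1 fell (median −0.30), and of 29 bile acid genes 1 fell (median 0.01). Genes of fatty acid and triglyceride synthesis had a median of −0.62 (18 of 25 negative) and those of cholesterol synthesis −0.41 (17 of 24 negative), with 0 called in either. Over all genes 49.9% had positive values and 0.957% were called. Hmgcs1, the cytosolic enzyme of cholesterol synthesis, had 555 and 618 CPM in LKO-NC and 101, 240 and 190 CPM in LKO-ALD (edgeR adjusted p = 0.183).

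Among regulators of liver metabolism, the receptor and coactivator genes that were called fell. Nr1i2, which encodes the xenobiotic receptor PXR, had 132 and 116 CPM in LKO-NC and 65.6, 39.8 and 33.4 CPM in LKO-ALD (−1.42, SE 0.262, edgeR adjusted p = 0.0345). Ppargc1a, the coactivator of mitochondrial biogenesis and gluconeogenesis, had 22.8 and 34.7 CPM in LKO-NC and 11.3, 9.68 and 6.20 CPM in LKO-ALD (−1.67, SE 0.285, edgeR adjusted p = 0.0303). No other gene was called among 35 of PPARA and fatty acid oxidation (median −0.16) or 24 of gluconeogenesis (median −0.14), against 0.957% called over all genes. Pck1, the gluconeogenic enzyme, had 3454 and 4562 CPM in LKO-NC and 1102, 1865 and 1354 CPM in LKO-ALD, without overlap, and missed the threshold (edgeR adjusted p = 0.0524). Nampt, which catalyses the slow step of NAD salvage, had 68.6 and 80.1 CPM in LKO-NC and 68.2, 72.5 and 128 CPM in LKO-ALD (0.27, SE 0.292, edgeR adjusted p = 0.66), and its groups overlapped. The NAD synthesis and consumption genes, Nampt included, had 0 of 33 called in edgeR (median −0.22).

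Cyp2b10, Gstt3 and Serpina3m rose among the xenobiotic, conjugation and acute phase genes. Cyp2b10, the classical target of the receptor CAR, had counts of 0 and 14 in LKO-NC and 6135, 6345 and 5793 in LKO-ALD (edgeR adjusted p = 0.0495), and with a control library at 0 the size of its fitted change depends on the model. It was the 1 gene that rose of 23 CAR and PXR genes, 15 of which had positive values (median 0.68, and 0.46 without LKO-NC replicate 1). Gstt3 was the 1 called of 42 conjugation genes (31 positive, median 0.46, and 0.18 without that library). Serpina3m, a serine protease inhibitor gene of the acute phase, had 86.4 and 171 CPM in LKO-NC and 936, 488 and 1635 CPM in LKO-ALD (2.99, SE 0.58, edgeR adjusted p = 0.0396). Serpina3m belongs to a cluster of near-identical paralogs and overlaps Serpina3k, so the split of reads between them is uncertain. Only Serpina3m was called among 26 acute phase genes, of which 22 had positive values (median 0.94, and 1.18 without LKO-NC replicate 1). The libraries of LKO-ALD differed widely in this list, with summed levels of 62760, 38460 and 104100 CPM against 34260 and 27850 CPM in LKO-NC. Serum amyloid Saa1, for example, had 829 and 864 CPM in LKO-NC and 5715, 1200 and 10772 CPM in LKO-ALD (edgeR adjusted p = 0.423). Slc39a7, the zinc transporter of the endoplasmic reticulum and Golgi, rose from 17.2 and 24.7 CPM to 58.5, 75.1 and 119 CPM (2.01, SE 0.365, edgeR adjusted p = 0.034), as the 1 called of 13 metallothioneins and zinc transporters (median 0.70). The share called over all genes, to set beside each of these lists, was 0.957%.

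Genes of endoplasmic reticulum stress leaned upward, while those of autophagy and the lysosome went both ways. Of 30 genes of endoplasmic reticulum stress and the integrated stress response, 27 had positive values (median 1.07, and 0.84 without LKO-NC replicate 1), with 0 called in edgeR. The chaperone Hspa5 had 319 and 1084 CPM in LKO-NC and 1455, 1182 and 5191 CPM in LKO-ALD (1.90, SE 0.744, edgeR adjusted p = 0.192). For Hspa5 the fed libraries were all above the controls, yet LKO-ALD replicate 3 was several times the other fed libraries. The list summed to 20410 CPM in LKO-ALD replicate 3 against 8178 and 6692 CPM in replicates 1 and 2. Some other members overlapped between the groups, with LKO-NC replicate 2 above LKO-ALD replicates 1 and 2. Calr had 493 and 974 CPM in LKO-NC and 630, 770 and 1256 CPM in LKO-ALD. Herpud1 had 186 and 417 CPM in LKO-NC and 233, 163 and 782 CPM in LKO-ALD. Ero1l, which reoxidises protein disulfide isomerase and was not on the list, rose from 3.75 and 5.59 CPM to 13.3, 13.1 and 24.6 CPM (1.86, SE 0.364, edgeR adjusted p = 0.0405). Of 28 autophagy and lysosome genes, Atg7, the enzyme that activates the autophagy conjugation systems, rose, and the autophagy receptor Calcoco1 and the transcription factor Foxo3 fell (median 0.21). Over all genes 0.957% were called. Atg7 had 8.84 and 10.53 CPM in LKO-NC and 25.2, 22.4 and 22.5 CPM in LKO-ALD (1.27, SE 0.215, edgeR adjusted p = 0.0303). Both LKO-NC libraries were low against FLOX-NC (23.9, 23.7 and 27.7 CPM), and LKO-ALD lay at that level. Foxo3 had 29.6 and 39.1 CPM in LKO-NC and 14.97, 13.01 and 17.8 CPM in LKO-ALD (−1.17, SE 0.22, edgeR adjusted p = 0.0368).

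Other genes that rose were in no list. Named by the rule for large changes were Pspc1, a paraspeckle protein (4.50 and 4.63 CPM to 19.5, 12.8 and 27.2 CPM, log2 fold change 2.12), Trmt61a, a tRNA methyltransferase (1.90), and Gtf2e1, a subunit of the general transcription factor TFIIE (1.89). Trub2 (1.62), Nsun3 (1.39) and Thumpd1 (1.39), which act in the modification of RNA, also rose, and were named after their values were seen. Chchd6, a protein of the mitochondrial contact site complex, rose from 0.476 and 0.709 CPM to 6.18, 3.82 and 2.83 CPM (2.84, SE 0.487, edgeR adjusted p = 0.0303).

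Some of the genes that fell are markers of immune cells, while 148 of the 182 called genes were in none of the 56 lists. In the Kupffer cell and macrophage list all 15 values were negative (median −1.47), 2 genes fell (Clec4f and Cd68), and LKO-ALD lay wholly below LKO-NC in 11. Over all tested genes 0.663% fell and 19.6% had LKO-ALD wholly below LKO-NC. Clec4f, the Kupffer cell lectin, had 136 and 78.3 CPM in LKO-NC and 17.1, 29.1 and 37.5 CPM in LKO-ALD (−1.94, SE 0.389, edgeR adjusted p = 0.0428). Cd68 had 19.2 and 9.30 CPM in LKO-NC and 1.57, 3.09 and 3.22 CPM in LKO-ALD. In FLOX-NC Clec4f had 73.1, 78.0 and 51.9 CPM and Cd68 had 5.90, 5.66 and 3.54 CPM, below LKO-NC in both genes. The feeding changes in floxed mice were −0.23 for Clec4f and −0.05 for Cd68, and neither was called there. Fewer Kupffer cells and less RNA per cell cannot be told apart in bulk tissue. The part of the control levels in these falls was not tested. Lgals3, which encodes the macrophage-rich lectin galectin-3, had 24.2 and 4.46 CPM in LKO-NC and 1.08, 1.70 and 2.19 CPM in LKO-ALD (−3.11, SE 0.558, edgeR adjusted p = 0.0325), and −1.43 without LKO-NC replicate 1 (edgeR adjusted p = 0.409). All 12 B and plasma cell markers were negative (median −2.42) and 4 fell, against 0.663% of all genes, with summed levels of 43.7 and 30.2 CPM in LKO-NC and 5.54 to 7.63 CPM in LKO-ALD. Of these, Mzb1 and Ms4a1 were at 0 in at least 1 library. Class II MHC and dendritic cell markers summed to 259.2 and 140 CPM in LKO-NC and to 60.6, 64.7 and 119 CPM in LKO-ALD (14 of 15 negative, median −1.57, 2 fell). H2-Q1, a class Ib MHC gene with close paralogs, fell from 30.6 and 22.3 CPM to 4.01, 2.90 and 3.78 CPM (−2.89, SE 0.421, edgeR adjusted p = 0.0217) and was the 1 called of 13 class I genes (12 negative, median −0.54).

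The 2 control libraries differed in immune markers. The 10 tested neutrophil markers summed to 61.3 CPM in LKO-NC replicate 1 and to 5.80 CPM in replicate 2, against 21.1, 19.7 and 31.1 CPM in LKO-ALD. The calgranulin S100a9, a defining marker, had 20.3 and 0.897 CPM in LKO-NC and 8.02, 6.49 and 12.96 CPM in LKO-ALD. Of the list, Ly6g, Mpo and Ltf were below the filter, and Camp, Ngp, Mmp8 and Retnlg were at 0 in at least 1 library, LKO-NC replicate 2 included. The neutrophil median was −0.45 with both control libraries and 2.81 without LKO-NC replicate 1, with 0 called in either. Recruited monocyte markers went from −1.28 to 0.09 and NF-kB genes from −0.57 to 0.19, whereas Kupffer cell (−1.07), B cell (−1.96), class II (−0.90) and interferon-stimulated genes (−1.16) stayed negative. Kupffer cell markers summed to 585 and 379 CPM in LKO-NC and 163, 244 and 261 CPM in LKO-ALD. The part of these immune cell levels in the other results was not tested.

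Interferon-stimulated genes shared the direction, with 31 of 32 negative (median −1.41) and 5 that fell, while over all genes 0.663% fell. LKO-ALD lay wholly below LKO-NC in 23 of the 32, against 19.6% of all tested genes. Ifit3, an interferon-induced antiviral gene, had 15.2 and 10.8 CPM in LKO-NC and 3.05, 5.94 and 1.79 CPM in LKO-ALD (−1.86, SE 0.396, edgeR adjusted p = 0.0495). Oas1g, of the family that senses double-stranded RNA, had 3.85 and 2.34 CPM in LKO-NC and 0.511, 0.469 and 0.653 CPM in LKO-ALD (−2.50, SE 0.433, edgeR adjusted p = 0.0305). Mx1, Oas2 and Ifi27l2a were the other three that fell. Nfkbia, the inhibitor of NF-kB and itself a target of it, fell from 64.0 and 67.7 CPM to 26.8, 29.2 and 30.9 CPM (−1.18, SE 0.201, edgeR adjusted p = 0.0303), and Nfkb2 fell by 1.58 on the log2 scale.

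The promoters of these called genes are shown because the motifs of their usual regulators can be read in them. Windows run from 250 bases before to 50 after the gene start, in RefSeq on GRCm38.p6, and were found for 2 of the 5 called interferon-stimulated genes and both called class II genes. Capitals mark the core of the interferon-stimulated response element, GAAA followed by any 2 bases and again GAAA, or its reverse complement.
Ifit3, chr19:34583279-34583578, + strand: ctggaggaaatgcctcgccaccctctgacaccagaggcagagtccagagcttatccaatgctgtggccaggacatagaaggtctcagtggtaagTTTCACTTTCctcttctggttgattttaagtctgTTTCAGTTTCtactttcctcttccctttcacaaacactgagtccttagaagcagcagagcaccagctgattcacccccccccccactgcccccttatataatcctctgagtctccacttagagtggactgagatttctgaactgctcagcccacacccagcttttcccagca
Oas1g, chr5:120887564-120887863, − strand: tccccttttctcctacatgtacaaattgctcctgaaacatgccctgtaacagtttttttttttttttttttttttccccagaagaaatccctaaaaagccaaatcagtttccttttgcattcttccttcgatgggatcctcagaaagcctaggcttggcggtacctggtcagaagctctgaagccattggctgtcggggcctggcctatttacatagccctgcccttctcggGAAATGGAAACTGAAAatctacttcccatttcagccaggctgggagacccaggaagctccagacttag
In the next pair capitals mark the Y box CTGATTGG of class II promoters, bound by NF-Y.
H2-Aa, chr17:34287774-34288073, − strand: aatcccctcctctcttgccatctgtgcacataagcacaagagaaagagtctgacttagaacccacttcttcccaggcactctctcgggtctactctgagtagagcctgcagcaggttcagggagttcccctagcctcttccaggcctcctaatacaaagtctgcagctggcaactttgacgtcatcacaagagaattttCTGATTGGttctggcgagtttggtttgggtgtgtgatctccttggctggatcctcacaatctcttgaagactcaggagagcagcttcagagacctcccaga
H2-Eb1, chr17:34305617-34305916, + strand: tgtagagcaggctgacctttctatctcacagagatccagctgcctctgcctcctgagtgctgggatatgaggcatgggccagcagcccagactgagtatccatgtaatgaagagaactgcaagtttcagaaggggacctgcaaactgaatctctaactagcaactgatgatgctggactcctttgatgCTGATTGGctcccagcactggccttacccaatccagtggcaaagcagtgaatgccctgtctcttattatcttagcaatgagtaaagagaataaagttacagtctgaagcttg
The response element core occurred 2 times in each of Ifit3 and Oas1g, on either strand, and the matches in Oas1g overlap. It was found in 3.44% of all 32851 promoters, or in a promoter of 3.99% of 27025 genes, and in 13 of the 22 interferon-stimulated genes of the list that had a promoter entry. The Y box occurred once in H2-Aa and H2-Eb1, in 4.10% of all promoters (4.70% of genes) and in 2 of 12 genes of the class II and dendritic list. These matches describe the letters only.

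Mitochondrially encoded genes had negative values in all 13 members (median −0.58, and −0.34 without LKO-NC replicate 1), and 1 fell, against 0.663% of all genes. The shared sign depended on that control library, since without it mt-Nd3 (0.22), mt-Nd4l (0.29) and mt-Co2 (0.45) were positive and the others negative. mt-Co3, a subunit of cytochrome c oxidase, had 786 and 1439.5 CPM in LKO-NC and 250.4, 262 and 387 CPM in LKO-ALD (−1.89, SE 0.365, edgeR adjusted p = 0.0381). It was highest in LKO-NC replicate 2, whereas mt-Co1, of the same complex, was highest in LKO-NC replicate 1 (91431 and 59644 CPM against 53361, 41154 and 47395 CPM). mt-Co3 abuts and overlaps mt-Atp6 on the same strand, and the counting of reads there was not tested. The mitochondrial tRNA genes mt-Tm (−2.01) and mt-Tq (−1.81), named after their values were seen, also fell. The libraries were made from polyA RNA, and how reads came to be counted for these tRNA genes was not tested. Outside the lists, H19, an imprinted long noncoding RNA, had 4.92 and 5.17 CPM in LKO-NC and 0.164, 0.307 and 0.218 CPM in LKO-ALD (−4.44, SE 0.788, edgeR adjusted p = 0.0318), and it too was named after its values were seen. FLOX-NC and FLOX-ALD had 0.103 to 1.49 CPM of H19, so both LKO-NC libraries lay above the other 9. The phosphatase gene Ppef2 was at 0 in all LKO-ALD libraries, at least 7.24-fold lower at a floor of 3 counts per library, and Rec114, a meiotic recombination gene, was at 0 in LKO-NC and at least 11.2-fold higher in LKO-ALD.

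**Figure D4:**
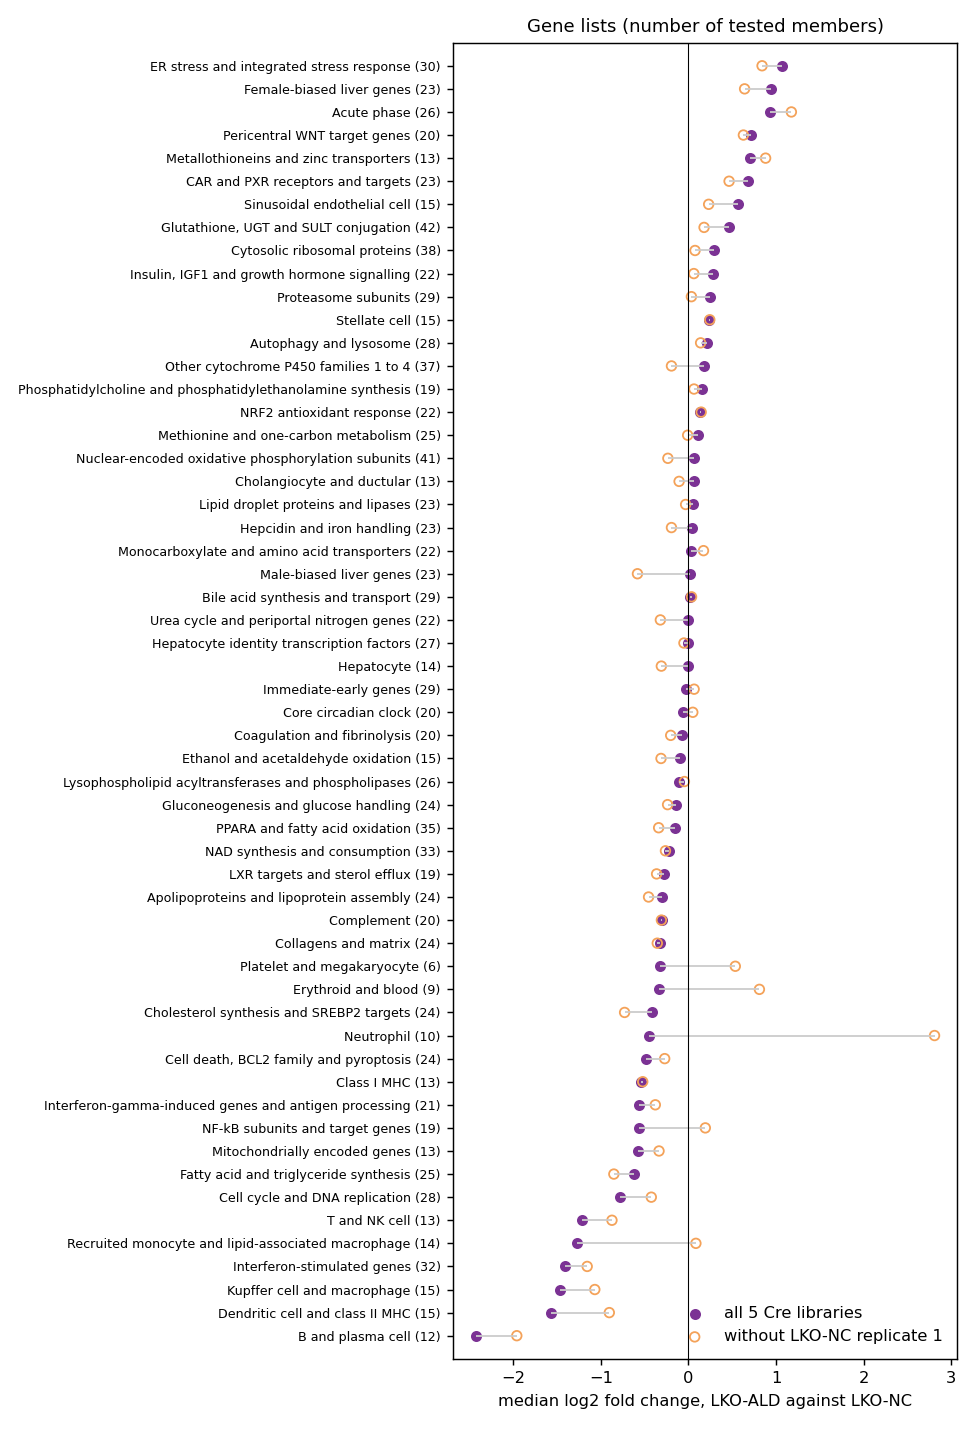
Median log2 fold change of the tested members of each of 56 gene lists (number of members in brackets), with all 5 Cre libraries (filled) and without LKO-NC replicate 1 (open). Endoplasmic reticulum stress genes lie highest (1.07) and B and plasma cell genes lowest (−2.42), and the neutrophil list shows the widest gap between the fits.

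Pericentral and other zonal genes were described last among the lists. Of 20 pericentral WNT target genes, 15 had positive values (median 0.71, and 0.63 without LKO-NC replicate 1) with 0 called. Glutamine synthetase (Glul) had 600 and 889 CPM in LKO-NC and 1711.5, 1140.4 and 1978 CPM in LKO-ALD (edgeR adjusted p = 0.152). Cyp2e1, the ethanol-oxidising cytochrome of pericentral hepatocytes, had 1220.5 and 3526 CPM in LKO-NC and 4866, 4213 and 3712 CPM in LKO-ALD (edgeR adjusted p = 0.345). Its fed libraries were all above the controls, but LKO-NC replicate 2 lay much nearer to them than replicate 1. Cell cycle and DNA replication genes had 21 of 28 negative values (median −0.78, and −0.42 without LKO-NC replicate 1) with 0 called. Of 24 collagen and matrix genes 1 fell, Col3a1, a fibrillar collagen, from 59.9 and 38.3 CPM to 12.8, 8.20 and 14.6 CPM (−2.05, SE 0.425, edgeR adjusted p = 0.0488), while the list had a median of −0.32 and stellate cell markers one of 0.23. Over all genes 0.663% fell.

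The floxed mice gave the same feeding comparison with other libraries, and 42 genes were called there (0.221%), 9 higher (0.0473%) and 33 lower (0.174%). The fed floxed libraries included FLOX-ALD replicate 1, with 772 CPM of Xist and 0 CPM of Y-linked genes. Of the 182 genes called in Cre mice, 17 were also called in floxed mice, all in the same direction, and 165 had the same sign. These were 52 of the 56 that rose and 113 of the 126 that fell, while 55.1% of all genes had a positive value in floxed mice. Genes called in both genotypes included Hdc, Zfand4, Slc8b1, Lmbr1l, Nat8f1, Foxo3, Calcoco1, H2-Q1 and Lpcat3. Hdc, for instance, had 49.8, 57.0 and 49.6 CPM in FLOX-NC and 13.2, 17.9 and 14.5 CPM in FLOX-ALD (−1.78, edgeR adjusted p = 0.00508), close to its levels in Cre mice. The median change in floxed mice was 0.53 among the 56 genes that rose in Cre mice, and −0.70 among the 126 that fell. These medians are nearer 0 than those in Cre mice, whose values chose the genes, so the gap is no measure of a difference between the genotypes. The floxed groups did not overlap in the same direction in 33 of the 56 and in 76 of the 126, against 9.42% and 9.96% over all tested genes.

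**Figure D5:**
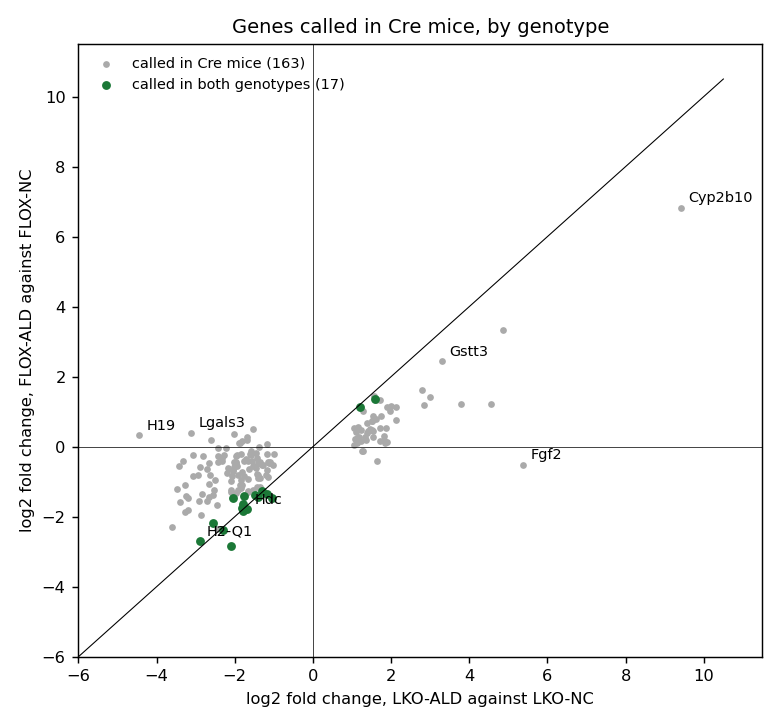
For genes called in Cre mice with reads in both Cre groups, the log2 fold change of LKO-ALD against LKO-NC (x) is plotted against that of FLOX-ALD against FLOX-NC (y), with the line of equality; the 17 genes called in both genotypes are green. Most points lie in the quadrants of shared direction, while Fgf2 (5.38 and −0.52) and H19 (−4.44 and 0.34) do not.

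The difference between the feeding effects of Cre and floxed mice passed adjustment for 1 gene, Fgf2 (0.00526% of those tested; difference 5.90 on the log2 scale, SE 0.707, edgeR adjusted p = 0.0351), while 1781 genes had an unadjusted p under 0.05. The level of the control libraries relative to floxed controls differed among the called genes. LKO-NC lay above all FLOX-NC libraries in 63 of the 126 genes that fell (15.1% over all tested genes) and below them all in 35 of the 56 that rose (13.9%). LKO-ALD lay below all of FLOX-NC in 119 of the 126 (15.7% over all genes) and above in 51 of the 56 (17.2%). The LKO-NC libraries are in the contrast that chose these genes, so the counts are a description. Col3a1, H2-Aa and Nfkb2 fell from levels above FLOX-NC, whereas Hdc, Zfand4 and Foxo3 fell from levels that overlapped those of FLOX-NC.

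The number of calls was sensitive to which libraries were in the fit. Without single libraries of the comparison it was 12, 129, 6, 138 and 9 (LKO-NC replicates 1 and 2, LKO-ALD replicates 1 to 3), and without FLOX-NC replicates 1, 2 and 3 it was 12, 18 and 52. Without FLOX-ALD replicates 1, 2 and 3 it was 251, 450 and 473. Of the 59 called genes named by the rule, Lpcat3 among them, 51, 32, 53, 22 and 51 lost the call without LKO-NC replicates 1 and 2 and LKO-ALD replicates 1, 2 and 3 in turn. All genes of the 182 that had a value in these fits kept their sign, which the lack of overlap between the groups made nearly certain.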

How the data were processed

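Per the labels' protocols, polyA RNA of mouse liver was prepared with a KAPA stranded mRNA kit and a SMARTER library kit. Tools named without versions in the submitters' processing notes are StringTie, HISAT2, cutadapt, FastQC and edgeR, with the build mm10; the strand setting is not given in the sources used here. The authors deposited estimated counts per gene, already whole numbers, and FPKM values, used here as an alternative. The 55401 gene values equal the sums of their transcripts. Genes passed filterByExpr (minimum count 10, minimum total 15), were scaled by TMM and fitted with edgeR 4.0.16 (R 4.3.3), 1 mean per group over all 11 libraries, with 7 residual degrees of freedom. Each standard error is the size of the log2 fold change over the root of its F statistic. The script was tested on simulated data. Alternatives used DESeq2 1.42.0 and limma 3.58.1 (voom, and log2(FPKM + 0.1)).

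Named genes were Lpcat3, Nampt, up to 15 called genes per direction of largest change whose mean log2 CPM reached 1, those also called without LKO-NC replicate 1, and up to 3 called members of each list and direction. The members and the 56 lists were chosen with earlier results of these data known. The design assumed read counts, and estimated counts were tested in the same way. Between 39.1 and 73.6 counts per library (in units of 1e6) limit the precision of scarce genes.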

Additional observations from a re-analysis of the deposited data

Results flagged for a closer look

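Fgf2 was the 1 gene whose response to NIAAA feeding differed between Cre and floxed mice by a test of the difference itself (5.90 on the log2 scale, SE 0.707, edgeR adjusted p = 0.0351). The change was 5.38 in Cre mice and −0.52 in floxed mice. It rests on counts of 7 and 2 in LKO-NC, where the main transcript was listed at 0 in both libraries. Over the alternatives the difference ran from 1.57 on the log2(FPKM + 0.1) scale (limma adjusted p = 0.457) to 7.06 without LKO-NC replicate 1, and with voom the adjusted p was 0.479. The call was also lost with a CPM of at least 1 in at least 2 libraries (edgeR adjusted p = 0.0642), with the replicate block (0.178) and in 7 of 11 fits that left out a single library. Those 7 were the fits without FLOX-NC replicates 1, 2 and 3 (0.0791, 0.143 and 0.152), LKO-NC replicate 2 (0.0516) and LKO-ALD replicates 1, 2 and 3 (0.109, 0.117 and 0.0509), in which the difference stayed between 5.25 and 6.06. The part of the opposite-strand gene Nudt6 in these counts was not tested.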

How the results depend on the processing

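Of 182 genes called in Cre mice, the count was 404 with no filter on low counts, 294 with a CPM of at least 1 in at least 2 libraries, 1526 with DESeq2, 120 with voom and 23 with only the libraries of the comparison. It ran from 6 to 473 without single libraries, of which FLOX-NC replicates 1 to 3 and FLOX-ALD replicates 2 and 3 were left out as a choice made after seeing the data. Without LKO-NC replicate 1 the 12 calls became 51 with no filter, 271 with DESeq2, 2 with voom, and 0 on FPKM and with only the libraries of the comparison. In floxed mice the 42 became 128 with no filter, 657 with DESeq2 and 6 with only the libraries of the comparison, and from 2 to 146 without single libraries. The 1 call of the interaction became 5 with no filter, 77 with DESeq2, 0 with the stricter filter, voom and FPKM, and from 0 to 8 without single libraries. Deviations of same-numbered samples correlated at −0.0481 and −0.0505 in Cre mice and at 0.0778, −0.0244 and −0.0362 in floxed mice. So few pairs cannot decide whether the title numbers pair the samples. With the replicate block by title number the counts were 7, 12 and 0 in Cre mice, floxed mice and the interaction. The 59 called named genes kept their direction in every alternative that gave a value, which the lack of overlap between their groups made likely. With only the libraries of the comparison 49 of them lost the call, with voom 17 and with FPKM 16. The causes were not tested. Counting depth limits genes of few counts, and 2 control libraries limit every Cre value.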
